A study of Drosophila melanogaster with 3 samples.

Results

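The 8 genes described here are the small heat shock genes Hsp22, Hsp23, Hsp26, Hsp27, Hsp67Ba and Hsp67Bc of chromosome arm 3L, the Hsp90 gene Hsp83 and the heat shock factor gene Hsf. They were chosen by name, from among 13945 protein-coding genes on the main chromosome arms. Every region of 5 deposited lists was taken whose summit, the position of highest signal, lay in the gene body or within 2000 bp of it. The lists are a list of peaks that passed IDR, a procedure that compares the ranks of peaks between replicates (5164 entries), a list from the pooled replicates and a list from each of 3 replicates (30000 entries each, which by design hold background regions besides peaks). Ranks follow the caller's signal value in each list, with rank 1 the strongest.

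The 3 biological replicates form 1 group. Each is a library from whole Drosophila melanogaster embryos of both sexes, aged 0 to 24 h, of the strain dpn-MiMIC-GFP, in which an eGFP exon placed in an intron of dpn makes a Dpn-GFP fusion protein from the endogenous gene. Sonication gave chromatin fragments of 200 to 800 bp. The precipitating antibody was against GFP by the description in the labels, although another field gives dpn as the antibody. The embryos of all replicates carry the insertion, no heat treatment is named in the labels, and no control library is among the samples analysed here. Whole embryos were used, so the number of cells with Dpn at a site and the amount of Dpn per cell cannot be told apart. The lists hold no read counts, so the depth of each replicate is unknown.

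Small heat shock proteins are chaperones built around an alpha-crystallin domain, which hold unfolding proteins in soluble complexes without using ATP. Hsp83 is the fly Hsp90, an ATP-driven chaperone of kinases and hormone receptors that is abundant without stress and is further induced by heat. Hsf is the transcription factor that trimerises on heat stress and binds heat shock elements, arrays of the unit GAA in alternating orientation. Several of the small heat shock genes are also known to be transcribed in development without heat, some under control of the hormone ecdysone. Dpn (Deadpan) is a repressor of the Hes family, with a basic helix-loop-helix domain, best known from neural stem cells.

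Of the 8 genes, Hsp27, Hsp26 and Hsp83 had a strong Dpn-GFP peak just upstream of a start site of their own, at ranks 221, 536 and 301 of the 5164 IDR peaks. Hsp23 and Hsp67Ba had an IDR peak within 2000 bp by the rule, but it was the peak of their neighbours Hsp27 and Hsp26. Hsp22, Hsp67Bc and Hsf had none. The sequences that carry the strongest peaks are therefore shown first, with that of Hsp23, a small heat shock gene of the same cluster with no IDR summit upstream of its start site, beside them. All were read from the release 6 genome (dm6) of NCBI RefSeq, and run 5′ to 3′ on the strand of the gene. The upstream sequences run from 285 bases before the first annotated start site to the first 15 bases transcribed. Capitals mark the 2-unit heat shock elements GAANNTTC and TTCNNGAA, and CACNAG on either strand, a form of the N-box bound by Hes proteins.
Hsp27 upstream (chr3L:9383778-9384077, plus strand): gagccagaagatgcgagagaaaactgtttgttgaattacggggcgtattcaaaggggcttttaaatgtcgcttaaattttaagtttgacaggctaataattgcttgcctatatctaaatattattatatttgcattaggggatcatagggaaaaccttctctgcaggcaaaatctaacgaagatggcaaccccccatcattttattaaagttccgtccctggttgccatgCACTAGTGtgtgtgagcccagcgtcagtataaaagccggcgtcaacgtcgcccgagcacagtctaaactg
Hsp26 upstream (chr3L:9377413-9377712, minus strand): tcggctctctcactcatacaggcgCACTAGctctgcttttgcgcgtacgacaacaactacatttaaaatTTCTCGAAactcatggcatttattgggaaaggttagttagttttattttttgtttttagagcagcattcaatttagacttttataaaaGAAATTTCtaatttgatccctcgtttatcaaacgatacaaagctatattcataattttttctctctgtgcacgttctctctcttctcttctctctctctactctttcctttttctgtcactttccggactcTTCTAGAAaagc
Hsp23 upstream (chr3L:9381597-9381896, plus strand): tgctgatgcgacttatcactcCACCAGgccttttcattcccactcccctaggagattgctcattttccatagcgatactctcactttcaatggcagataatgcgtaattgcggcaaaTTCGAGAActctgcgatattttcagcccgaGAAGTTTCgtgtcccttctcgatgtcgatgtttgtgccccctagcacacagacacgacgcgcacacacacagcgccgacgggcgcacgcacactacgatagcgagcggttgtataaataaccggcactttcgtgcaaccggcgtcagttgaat
Hsp83 site (chr3L:3193137-3193166, plus strand): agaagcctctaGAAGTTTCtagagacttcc
Hsp83 intron peak (chr3L:3194172-3194359, plus strand): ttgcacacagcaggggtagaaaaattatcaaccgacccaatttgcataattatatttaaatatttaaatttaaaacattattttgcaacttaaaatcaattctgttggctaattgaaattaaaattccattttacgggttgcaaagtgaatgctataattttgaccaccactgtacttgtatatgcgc
The summit of the pooled list lies at base 125 of the Hsp27 sequence and at base 145 of the Hsp26 sequence. For Hsp83, whose strongest peak lies in the 5′ UTR of its longer transcript, the 30 bases shown hold the 2-unit element nearest to that summit. The intronic peak is shown whole, with its summit at base 101, and holds none of the marked motifs.

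Across the set, 5 of 8 genes had an IDR summit in the gene body or within 2000 bp, which held for 40.5% of all protein-coding genes. These 5 genes shared 5 IDR peaks, of which 3 were at Hsp83. Hsp83 was the 1 gene of the 8 with several IDR summits: 2 or more were found at 14.4% of all genes, and 3 or more at 4.86%. An IDR summit within 1000 bp of a start site was found for 3 of 8 genes (Hsp26, Hsp27 and Hsp83), beside 27.9% of all genes. All 8 had some entry of the pooled list, and so had 77.1% of all genes. The strongest pooled entry had a median rank of 536 over the 8 genes, beside a median of 4749 over the 10745 genes with an entry. That median is the rank of the Hsp26 peak, which is counted for Hsp26 and again for Hsp67Ba. Within 1000 bp of a start site the rank was 8491 for Hsp22, 17848 for Hsp23, 17182 for Hsp67Ba and 13555 for Hsp67Bc. It was unchanged for Hsp26, Hsp27, Hsp83 and Hsf. The median length of the windows of the 8 genes was 5682 bp (4884 to 8332 bp), beside 6166 bp for all genes. The windows of Hsp83 (8091 bp) and Hsf (8332 bp) were longer than that median of all genes. Neighbouring genes share entries in these values, and the 8 genes are not independent observations.

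Each replicate alone gave a similar set. When each replicate list was cut to its strongest 5164 entries, 5 of the 8 genes had an entry in replicate 1, where 40.6% of all genes had one. In replicate 2 it was again 5 genes, beside 39.6% of all genes. In replicate 3 it was 7 genes, beside 39.8%, with Hsp22 and Hsp67Bc added through 1 shared entry. The mean was 5.67 ± 1.15 genes (SD, n = 3). Hsp23, Hsp26, Hsp27, Hsp67Ba and Hsp83 were in all 3 sets and Hsf in none.

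**Figure D1:**
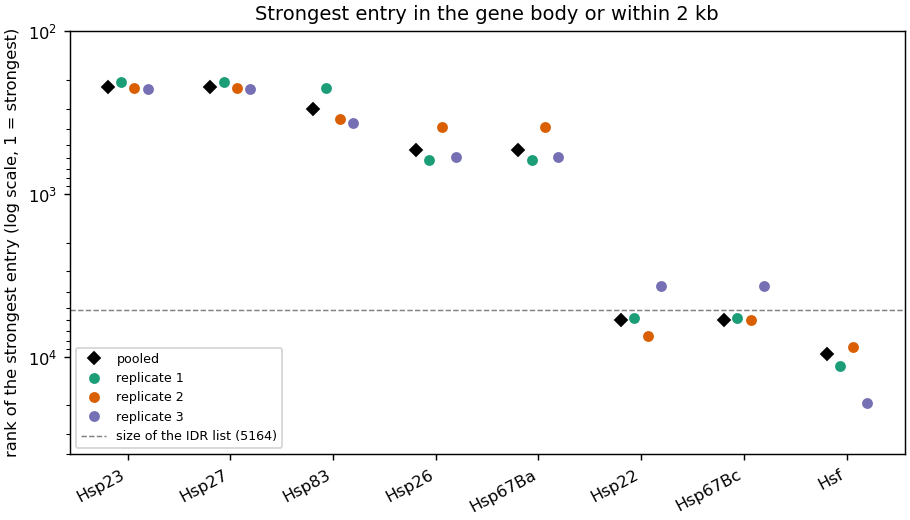
Rank of the strongest entry in the gene body or within 2 kb (vertical axis, log scale, 1 is strongest, drawn upwards) for each of the 8 genes, in the pooled list (diamonds) and in the 3 replicates (circles); the dashed line marks rank 5164. The points of Hsp23, Hsp27, Hsp83, Hsp26 and Hsp67Ba all lie at ranks between 204 and 620, and those of Hsp22, Hsp67Bc and Hsf between 3693 and 19429.

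Hsp27 (FBgn0001226, chr3L:9384063-9385694, plus strand), which encodes a small heat shock protein found in the nucleus, had the strongest peak of the 8 genes. It had rank 204 in replicate 1, 223 in replicate 2 and 225 in replicate 3. The ranks of the replicates thus lay close together. In each replicate about 3% of genes had a stronger entry: 2.83%, 3.11% and 3.04%. The pooled region (chr3L:9383739-9384077, 339 bp, signal value 770) had its summit in intergenic sequence, 161 bp upstream of the Hsp27 start site. The summits of the replicates lay 162, 129 and 164 bp upstream of it, so that they spread over 35 bp. This was the sole pooled entry at Hsp27.

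Hsp23 (FBgn0001224, chr3L:9381882-9382765, plus strand), a cytosolic small heat shock protein gene, lies before Hsp27 on the same strand, and the Hsp27 peak falls 1137 bp past its 3′ end. The summit is 2020 bp downstream of the Hsp23 start site, against 161 bp upstream of that of Hsp27. Nearest to the Hsp23 start site itself was a weak pooled entry at rank 17848, 425 bp upstream, which had rank 15554 in replicate 1 and 21978 in replicate 3 and no match in replicate 2. So Hsp23 counts among the genes with an IDR peak through its neighbour's upstream region.

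Hsp26 (FBgn0001225, chr3L:9376418-9377427, minus strand), another cytosolic small heat shock protein gene, had an entry of rank 620 in replicate 1, 388 in replicate 2 and 594 in replicate 3. Between 5.18% (replicate 2) and 7.79% (replicate 1) of genes had a stronger one. The order against Hsp27 was the same in each replicate, with the Hsp26 entry the weaker of the pair. The pooled region (chr3L:9377460-9377685, 226 bp, signal value 521) was intergenic, with its summit 141 bp upstream of the first Hsp26 start site and 193 bp upstream of the second. Replicate summits lay 114, 145 and 107 bp upstream of the first start site.

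Hsp67Ba (FBgn0001227, chr3L:9377802-9379534, minus strand), which also encodes a protein of the alpha-crystallin family, follows Hsp26 at the other side of that peak. The summit is 234 bp beyond the 3′ end of Hsp67Ba and 1966 bp from its start site. At its own start site no pooled entry lay closer than 665 bp (rank 17182, matched only in replicate 1, at rank 12428). Nearer entries were found in single replicates, 14 bp past the start site in replicate 3 (rank 25513) and 327 bp past it in replicate 2 (rank 29451). A further entry in its coding exon, which is also an exon of the antisense transcript asRNA:CR43481, had pooled rank 11858 and ranks 12429, 26535 and 26404 in replicates 1 to 3.

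Hsp22 (FBgn0001223, chr3L:9372931-9374964, plus strand) encodes the small heat shock protein of mitochondria, and Hsp67Bc (FBgn0001229, chr3L:9371511-9372497, minus strand) a chaperone known to act with the BAG protein Starvin in the disposal of misfolded proteins. Neither had an IDR summit: the nearest, that of Hsp26, was 2604 bp from Hsp22 and 5071 bp from Hsp67Bc. Their strongest pooled entry, at rank 5973, was the same one and lay in the 5′ UTR of Fdx1, a ferredoxin gene, 20 bp past the Fdx1 start site. It had rank 7923 in replicate 1, 11325 in replicate 2 and 3693 in replicate 3, so that it was among the strongest 5164 entries of replicate 3 alone. By this entry 43.5% of all genes had a stronger one in the pooled list, near the middle of all genes.

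Closer to Hsp22 itself, a pooled entry of rank 8491 lay 348 bp upstream of the second Hsp22 start site, in the 5′ UTR of the longer transcript and in the 3′ UTR of CG4456. Its ranks were 5757, 29657 and 6760 in replicates 1 to 3, so replicate 2 stood apart with an entry near the end of its list. At Hsp67Bc an entry 24 bp past the start site had pooled rank 13555. It had ranks 18147 in replicate 1 and 12304 in replicate 3 and no summit within 150 bp in replicate 2. The nearest entry of replicate 2 to this start site (rank 17243) lay 248 bp upstream of it. Ranks or matches at both sites thus varied between replicates, whereas each of the 3 strong peaks was among the strongest 1000 entries of every replicate.

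The 6 small heat shock genes lie in 1 run of 14.2 kb, from Hsp67Bc to Hsp27. The same run holds CG4456 (formerly Hsp67Bb), CG4461 (another gene of the alpha-crystallin family) and asRNA:CR43481, and it is flanked by Fdx1 and CG4080. Inside the run were 2 IDR peaks, 0.141 per kb beside 0.0386 per kb over the main arms. They are the peaks of Hsp27 and Hsp26, and no further IDR summit lay within 10000 bp of either end. The pooled list had 11 entries inside, 0.776 per kb beside 0.224 per kb over the main arms. The replicates had 9, 9 and 11. A run of closely packed genes was compared here with whole arms, gene-poor sequence included, and the values are a description.

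**Figure D2:**
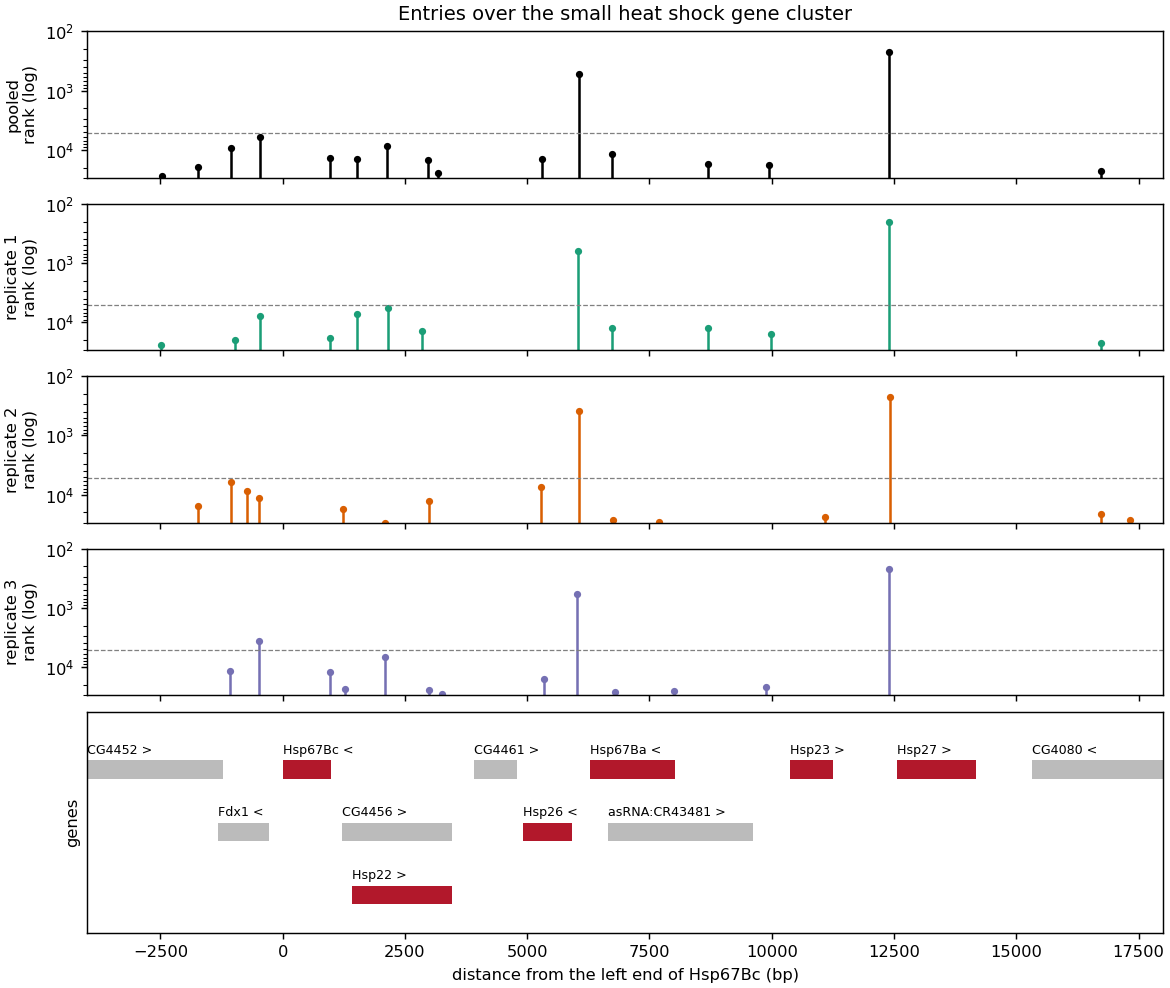
Entries of the pooled list and of replicates 1 to 3 over the small heat shock gene run: horizontal axis, distance of the summit from the left end of Hsp67Bc in bp; vertical axis, rank on a log scale with the strongest at the top; the dashed line marks rank 5164, and the lowest panel shows the genes (red for the 6 small heat shock genes of the set, grey for others, with arrows for the strand). In all 4 lists the tall lines stand before Hsp27 (ranks 204 to 225) and before Hsp26 (ranks 388 to 620), and those near Hsp22 and Hsp67Bc are at rank 3693 or below.

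The remaining entries of the run differed between replicates. A pooled entry in the Hsp26 coding exon (rank 14317) had rank 7456 in replicate 2 and 15695 in replicate 3 and no match in replicate 1. One (rank 14369) lay 91 bp past the first Hsp22 start site, a position where a transcript of CG4456 also starts. It was matched in replicate 1 alone, at rank 7336. One in the coding exon of Hsp22 (rank 14849) had ranks 14133, 12616 and 24433. Of the 25 pooled entries at the 8 genes, 10 had a summit within 150 bp in all 3 replicates (40.0%), against 35.0% of all pooled entries. Among the 20 that did not reach the IDR list it was 5 (25.0%), against 22.1% of all such entries. The match of the weaker entries was thus close to that of weak entries in general.

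Hsp83 (FBgn0001233, chr3L:3192969-3197059, plus strand) had 3 IDR peaks. The strongest (chr3L:3192953-3193248, 296 bp, signal value 673) had rank 223 in replicate 1, 347 in replicate 2 and 367 in replicate 3. In none of the replicates did it rank as high as the Hsp27 peak, and in each it ranked above the Hsp26 peak. The share of genes with a stronger entry was 3.01%, 4.68% and 4.78%. Its summit lay 138 bp past the first annotated start site and 109 bp upstream of the second, within the 5′ UTR of the longer transcript. The replicate summits were within 10 bp of it.

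A further peak of Hsp83 (chr3L:3194172-3194359, 188 bp, signal value 186) was in an intron, 1056 bp past the second start site. It had IDR rank 3125 and ranks 2199, 3492 and 4876 in the replicates. It was the weakest of the 5 peaks in the IDR list and in replicates 1 and 2, but not in replicate 3. The last (chr3L:3197436-3197851, 416 bp, signal value 206), of IDR rank 2688, was 585 bp beyond the 3′ end of Hsp83 but 13 bp upstream of the start site of the neighbour CG14966. Its ranks were 1739, 2432 and 6120, and so in replicate 3 it was below the strongest 5164. Of the 3 IDR peaks counted at Hsp83, then, 1 lies at the start site of another gene. Just outside the window, at 2038 bp from the gene body, an IDR peak of rank 1207 lay 7 bp past the start site of gry.

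Hsf (FBgn0001222, chr2R:18130303-18134634, minus strand) had no IDR summit, and the nearest was 4478 bp away, at the start site of stau. Its strongest pooled entry, at rank 9618, was in a coding exon 707 bp past the start site, and 54.9% of all genes had a stronger one. In the replicates the strongest entries were at different places. Replicate 1 had rank 11477 in the 5′ UTR, 546 bp past the start site. Replicate 2 had rank 8778 in the coding exon, and replicate 3 had rank 19429 in the neighbouring gene Pcl (Polycomb-like). None of the 7 pooled entries at Hsf was matched in all 3 replicates. The share of genes with a stronger entry was 58.8%, 52.1% and 70.0%, so Hsf stood below the middle of the genes in each replicate.

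**Figure D3:**
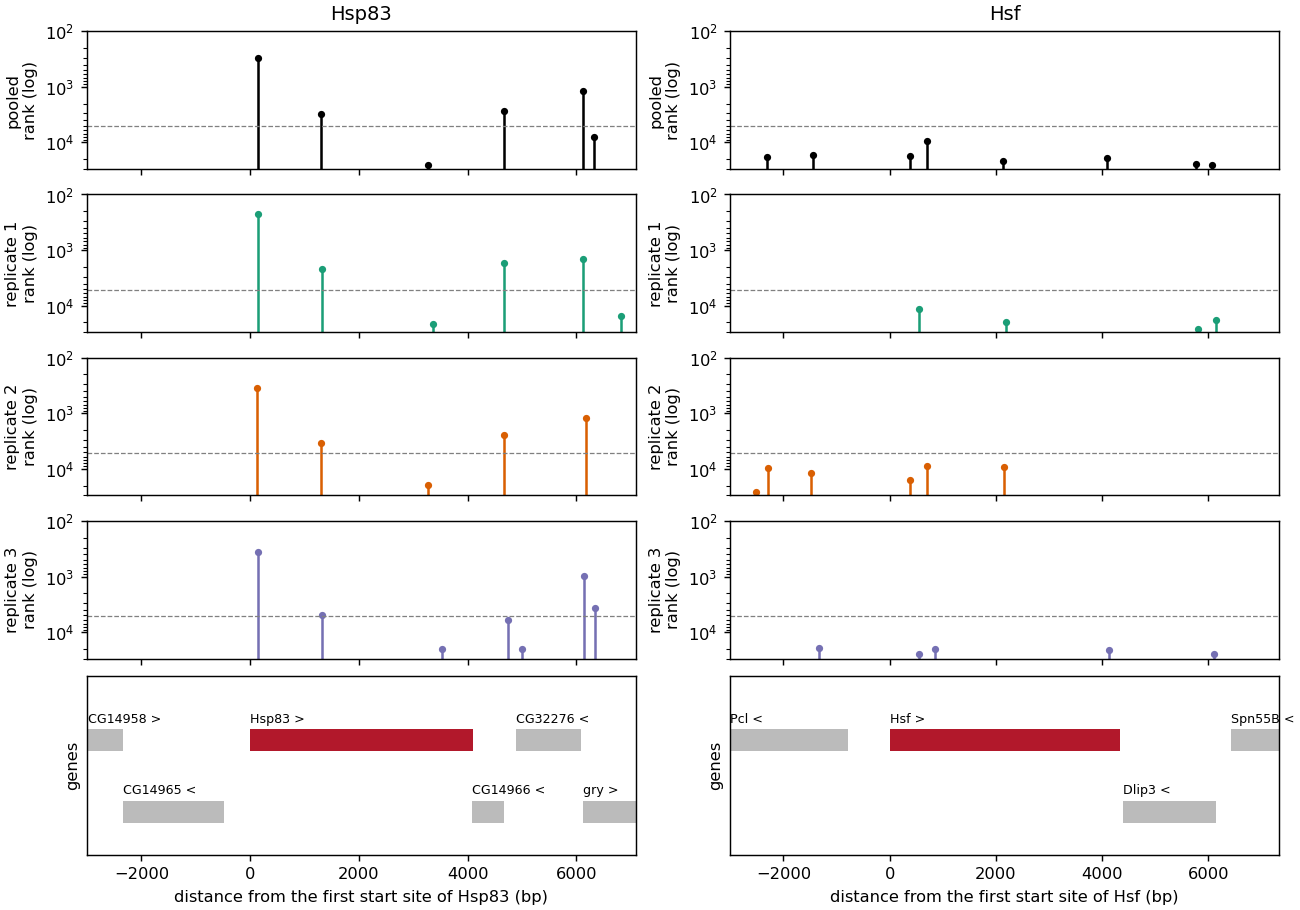
Entries of the pooled list and of replicates 1 to 3 around Hsp83 (left) and Hsf (right): horizontal axis, distance of the summit from the first start site in bp, in the direction of transcription; vertical axis, rank on a log scale with the strongest at the top; dashed line, rank 5164; lowest panels, genes (red for the named gene, grey for others, with arrows relative to its strand). Hsp83 has a tall line near its start site in each list (ranks 223 to 367), and all lines at Hsf lie below the dashed line, the highest at rank 8778.

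The shape of the strong regions was alike in 1 respect. Most regions in these lists have a fixed width (416 bp in the IDR list), and 29.0% of IDR peaks were narrower. Of the IDR peaks at the 8 genes, 4 of 5 were narrower (80.0%). This was also the case for 87.8% of the 1000 strongest IDR peaks, so that the narrow shape goes with strong rank in the whole list. The intronic Hsp83 peak was an exception, being narrow (188 bp) at IDR rank 3125. The regions of Hsp27 and of the start of Hsp83 were narrow in all 3 replicates (262 to 292 bp and 221 to 241 bp). The Hsp26 region had the usual width in each replicate and was narrow only in the pooled and IDR lists.

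**Figure D4:**
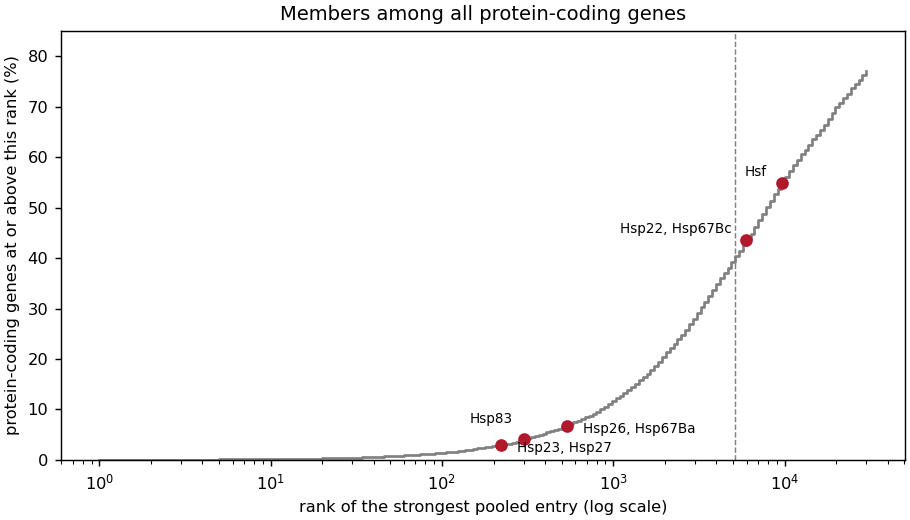
Share of all 13945 protein-coding genes (vertical axis, in percent) whose strongest pooled entry is at or above a rank (horizontal axis, log scale); red points mark the 8 genes and the dashed line rank 5164. Hsp23, Hsp27, Hsp83, Hsp26 and Hsp67Ba lie where 2.94% to 6.8% of genes have a stronger entry, Hsp22 and Hsp67Bc at 43.5% and Hsf at 54.9%.

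Heat shock elements and Hes-type sites were then looked up, on both strands, in the 300 bases from 250 before to 50 after each of the 11 annotated start sites of the 8 genes. The windows of the paired start sites of Hsp26 and of Hsp83 overlap, as do those of Hsp67Bc and of the first Hsp22 start site. The 3-unit heat shock element (TTCNNGAA followed by NNTTC, or GAANNTTC followed by NNGAA) was in none of the 11, and in 0.421% of 19253 promoters of the same length. Only exact letters were searched, and heat shock elements with altered units would not be found. The 2-unit form GAANNTTC was in 6 of the 11 promoters, those of Hsp23 and Hsp67Bc, both of Hsp26 and the second of Hsp22 and of Hsp83, beside 9.33% of all promoters. The form TTCNNGAA was in 3 of the 11, those of Hsp23 and Hsp26, beside 7.61%. Where windows overlap, 1 match counts for both. Hsp23 thus had both forms, 138 and 168 bp upstream, with no IDR summit there, while Hsp26 had both forms with a strong peak. The second start site of Hsp83 had GAANNTTC, also with a strong peak. The 300 bases at Hsp27, with the strongest peak, held neither form. A GAANNTTC lay farther upstream, outside these bases, 177 bp before the summit of that peak.

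Of the Hes-type sites, CACGTG and CACGCG were in none of the 11 promoters (4.01% and 7.3% of all promoters). The N-box form CACNAG was found at Hsp27, where matches on opposite strands overlap 55 and 53 bp upstream of the start, and at the first start site of Hsp83, beside 30.4% of all promoters. GAGAG, a match to GAGA factor, was found 6 times at Hsp26 and 5 times at the second start site of Hsp22, once at the first and once at Hsp23 (33.1% of all promoters have it). TATAAA was at 9 of the 11 start sites and in 42.2% of all promoters. TATCGATA, the element of the factor DREF, was at the first Hsp83 start site, and the shorter TATCGA, contained in it, there and at Hsf, 2 bp upstream (7.98% and 25.2% of all promoters).

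Around the summits themselves, in the 50 bp on either side, GAANNTTC was present at the Hsp83 start peak, beginning 41 bp after the summit, and at the Hsp26 peak, where it is the capital run nearest to base 145 in the sequence above. It was in 3.18% of all 5164 IDR summit windows. The Hsp27 window and the window of the intronic Hsp83 peak held none of the searched motifs. The window near CG14966 held CACNAG 22 bp from its summit, as did 11.4% of all windows. No searched motif was thus common to the 5 windows. With 200 bp on either side, a width added after the data were seen, CACNAG was in 5 of 5 windows, beside 39.1% of all IDR windows of that length, and GAANNTTC in 4 of 5, beside 11.0%. In the Hsp27 window CACNAG began 106 and 108 bp after the summit and GAANNTTC 177 bp before it. TTCNNGAA was in 1 of 5 (9.76% of all windows), GAGAG in 2 (43.0%) and TATAAA in 3 (48.5%). The 3-unit element (0.62%), CACGTG (5.07%), CACGCG (9.59%), TATCGATA (7.96%) and TATCGA (26.6%) were in 0 of 5. The windows of 50 bp on either side differed in base composition, from 51.5% A and T at the Hsp83 start and 50.5% at CG14966 to 68.3% at Hsp27, 73.3% at Hsp26 and 79.2% in the Hsp83 intron, with a median of 63.4% over all IDR summits. The AT-richest and the AT-poorest of the 5 windows both belonged to Hsp83 or the gene after it.

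The IDR peaks most like that of Hsp27 in their ranks over the 3 replicates were those nearest to the start sites of CG9921 (ranks 198, 224 and 216), Ptpmeg2 (193, 211 and 214) and CG7183 (203, 209 and 242). Likeness was the distance between log10 ranks, which was 0.022, 0.0404 and 0.0424. All 3 of these summits lay in introns, whereas the Hsp27 summit was intergenic. Those of Ptpmeg2 and CG7183 were 187 and 127 bp upstream of a start site, beside 161 bp for Hsp27. That of CG9921 was 611 bp past its nearest start site.

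Other chaperone genes were read by the same rule, from 4 lists with 41 genes. Of these, 20 had an IDR summit (48.8%), beside the 40.5% of all genes. The largest share was among the 11 co-chaperones of Hsp90, of which 8 had one (72.7%). The strongest IDR summits of Stip1, Cdc37 and CG1416 lay nearest to the start site of another gene (Pi3K21B, dlt and step). Those of p23, Fkbp59 and Droj2 lay 15 bp past, 6 bp past and 138 bp upstream of their own start sites. That of nudC lay 1307 bp past its start site. Stip1, the fly Hop, which links Hsp70 to Hsp90, had the strongest, at IDR rank 294 and ranks 427, 230 and 323 in the replicates, but its summit lay 19 bp upstream of the start site of Pi3K21B and 2739 bp from that of Stip1. Sgt, a co-chaperone with tetratricopeptide repeats, had IDR rank 1020 (962, 1032 and 1264 in the replicates), with the summit 761 bp upstream in an intron of BicD. Droj2, of the DnaJ family, had IDR rank 2455 (3255, 2707 and 1831 for its strongest entry in each replicate), 138 bp upstream of its start site.

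Among the constitutive, mitochondrial and endoplasmic reticulum chaperones, 7 of 13 had an IDR summit (53.8%). For Trap1 and Hsp60D that summit lay nearest to the start site of another gene (Vha16-1 and Hacd2). Hsc70-5, the Hsp70 of mitochondria, had IDR rank 677 (1226, 472 and 586), 26 bp past its start site. Hsc70-4, the main cytosolic Hsp70 of unstressed cells, had rank 1098 (927, 1211 and 1210), 146 bp upstream. CG11267, the mitochondrial Hsp10, had rank 1246 (769, 1383 and 1626), 123 bp upstream. Hsp60A (rank 3020, 105 bp upstream) and Gp93 (rank 3877, 37 bp upstream) also had a peak near their own start sites. In all of these the peak was close to the gene's own start site in the way of Hsp27, Hsp26 and Hsp83. In the IDR list all ranked below those.

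Of 10 other heat-inducible genes, 3 had an IDR summit (30.0%), a share below that of all genes. They were stv, the gene of the BAG protein Starvin (rank 1430; 1515, 1667 and 1231 in the replicates), the non-coding RNA gene lncRNA:Hsromega (rank 1788; its strongest entries in the replicates 1309, 1795 and 1489) and Hsp68 (rank 1991; 1543, 3420 and 1885). The Hsp68 summit lay 940 bp upstream of Hsp68 and 37 bp upstream of SMC1. The 6 Hsp70 genes of the list had no IDR summit. Of them Hsp70Aa and Hsp70Ba had 1 pooled entry each, at ranks 29220 and 28414, and the other 4 none. These copies are nearly identical in sequence, and how reads that fit several copies were treated is not given in the sources used here, so their values are uncertain. Of 7 other genes listed by name as small heat shock genes, 2 had an IDR summit (28.6%). They were CG4461, through the peak upstream of Hsp26, and CG14207 (rank 1693, with 2292, 1501 and 1713 in the replicates), 1058 bp upstream. The 7 include CG4456, listed under its former name Hsp67Bb, whose body covers that of Hsp22.

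**Figure D5:**
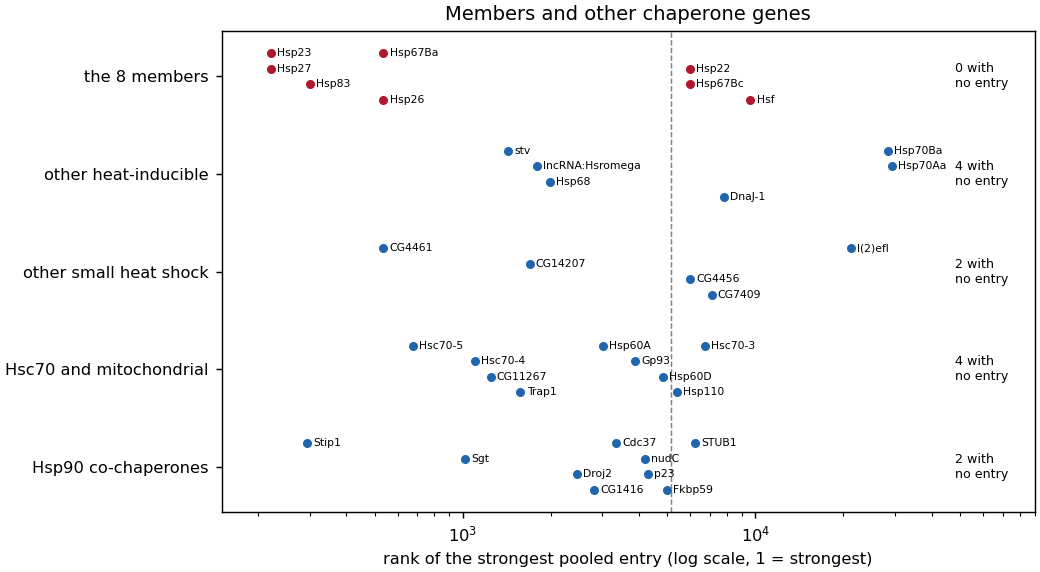
Rank of the strongest pooled entry (horizontal axis, log scale, 1 is strongest) for each of the 8 genes (red) and for the genes of 4 other chaperone lists (blue); the dashed line marks rank 5164, and the numbers at the right count genes without any pooled entry. Stip1 (rank 294) and CG4461 (rank 536, the peak upstream of Hsp26) are the blue points that reach the ranks of the 5 leading red points, and Hsp70Aa and Hsp70Ba lie near the end of the list.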

How the data were processed

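Deposited dm6 peak lists of 3 biological replicates of 1 group were used. The authors' lists have no header lines. Column 7 is a signal value that the authors' peak caller gave each region before deposit, on the pooled or single replicates against a control alignment per the deposited notes on the files, and it only ranked entries within a list. Column 9 of the deposited lists is the −log10 of a q-value, with 1 value (4.05) for all IDR entries. Column 10 of the deposited lists, a value of another kind, counts the bp from a region's start to its summit. Aligner, caller and versions are not given in the sources used here, and depth is unknown. The deposited lists for dm3 were not used.

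Genes came from Ensembl release 115 and sequence and a second annotation from NCBI RefSeq, all of genome release 6. Summits were matched between lists within 150 bp. A replicate's strongest entries are as many as the IDR list holds. Positions are counted from 1. Scripts used Python 3.11.15, pandas 2.3.3, numpy 2.4.6 and matplotlib 3.10.9, and were tested on simulated lists. No test was made, since there is 1 group and no control. The genes, lists and rules were chosen with earlier results of these data known. Chaperone genes were named when among the 3 strongest of their list, and 6 of 41 matched under an updated symbol. CG14207, the Hsp70 copies, Cdc37, CG1416, p23, Fkbp59, nudC, Trap1, Hsp60A, Hsp60D and Gp93 were named after their values were seen. Named as the site of an entry or after their values were seen were gry, stau, Pcl, CG14966, SMC1, Pi3K21B, BicD, dlt, step, Vha16-1 and Hacd2. The same holds for the genes under other observations. Alternatives changed the window, the peak set, the matching distance, the annotation, the ranking column and the number of top entries, and left out each replicate from the matching.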

Additional observations from a re-analysis of the deposited data

How the results depend on the processing

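The count of genes with an IDR summit (5 of 8) was within 1.5 times of this under 17 of 20 alternatives. Among them were the NCBI annotation (5, beside 40.5% of all genes) and the strongest 2582 peaks (5, beside 25.6%). A window of 1000 bp gave 4 (beside 34.3%), and a window of 5000 bp gave 7 (beside 54.2%). Others kept IDR peaks matched in the replicates' top entries, leaving out each replicate in turn at each matching distance (5 to 5, beside 31.2% to 34.3%). The IDR list was made from all 3 replicates, and the strongest peaks of these 5 genes have ranks 204 to 620 in each. The count could therefore not change under these alternatives, nor with the strongest 2582 peaks, and their agreement is no support for it. It was 1 (Hsp83) with the gene body alone (13.2% of all genes), 3 within 1000 bp of a start site (27.9%) and 3 within 500 bp (24.5%), where the peaks shared with neighbours drop out by construction. Within 1000 bp of a start site the strongest pooled rank became 8491 for Hsp22, 17848 for Hsp23, 17182 for Hsp67Ba and 13555 for Hsp67Bc. With 5000 bp it became 536 for Hsp22, 221 for Hsp67Ba and 3882 for Hsf. Ranked by column 9, whose highest value is shared by many entries, Hsp23, Hsp26, Hsp27, Hsp67Ba and Hsp83 were tied at mean rank 2817. With the strongest 1000 or 10000 entries of each replicate, a mean of 5.0 or 7.33 genes had one. The shares of all genes were not computed for these sizes in the replicates. In the pooled list, 11.6% of all genes had an entry at rank 982 or better, and 56.0% at rank 10108 or better. The wider motif window was chosen after seeing the data. No paired analysis was possible because there is 1 group. Without read counts, the counting error of each rank is unknown, and whether Hsp22, Hsp67Bc and Hsf lack binding or fell below the threshold at this depth was not tested.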

Other observations

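The genes of the IDR peaks around Hsf were named after their values were seen. A peak of IDR rank 3882 lay 46 bp upstream of a start site of stau, which encodes Staufen, at 4478 bp from the Hsf body. On the other side, a peak of rank 4140 lay 1 bp past a start site of pAbp, which encodes a poly(A)-binding protein, and a stronger one of rank 546 lay 500 bp past it, 7241 bp from Hsf. The next, of rank 1600, lay 19 bp upstream of EMRE, 13382 bp from Hsf. After the small heat shock gene run, the next IDR peaks were of rank 1702, inside CG4080, 11639 bp past Hsp27, and of rank 1961, 16 bp upstream of eIF4E1, which encodes a cap-binding translation factor.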
